A study of Mus musculus with 12 samples.

Results

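The small subunit cytosolic ribosomal proteins were taken as every gene of the ribosome footprint table whose symbol is Rps followed by a number, with an optional letter and digit, together with *Rpsa* and *Fau*. Names marked as pseudogenes and the S6 kinase genes were left out. The rule gave 33 of the 10080 genes of the footprint table, and all 33 were also listed in the mRNA table, which holds 41255 genes. The rule itself used gene symbols and no expression value, but the members were chosen with earlier results of these data known.

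These proteins and 1 ribosomal RNA form the small (40S) subunit, which binds the initiator tRNA, scans the 5′ end of an mRNA for the start codon and reads each codon during elongation. Their mRNAs are among the most abundant of a growing cell and belong to the TOP mRNAs, which begin with a C followed by a run of pyrimidines and are translated under control of mTOR through LARP1. *RPL10* is a protein of the other, large (60S) subunit, located near its peptidyl transferase centre.

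The data came from Ba/F3, a mouse lymphoid cell line that depends on interleukin-3. All cells carried a retroviral vector with human *RPL10* cDNA, *WT* or with the arginine-to-serine change R98S, and in both genotypes an shRNA knocked down the mouse *Rpl10* gene. Each line was a monoclonal culture, so a clone is the unit of replication and differences between single clones count as replicate error. Ribosome footprints (RPF, the mRNA fragments that ribosomes protect from RNase) and total mRNA were sequenced from 3 *R98S* clones (11, 13 and 35) and 3 *WT* clones (28, 29 and 36), after 5 min of cycloheximide at 100 µg/ml, which makes 12 libraries.

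Values are normalized counts, that is read counts divided by a size factor for each library. Recovered depth was 6617457 to 23136595 reads for mRNA and 3477723 to 10883086 for RPF. Of the genes checked for the labelled line, *Ptprc*, *Il3ra*, *Csf2rb*, *Csf2rb2*, *Cd79a* and *Cd79b* were detected, while the B-lineage genes *Pax5*, *Ebf1*, *Vpreb1*, *Igll1* and *Rag1* were at or near 0 in all clones. Mouse *Rpl10*, the knocked-down gene, had 2905, 1449 and 2355 normalized mRNA counts in *R98S* clones 11, 13 and 35 and 4501, 2345 and 2230 in *WT* clones 28, 29 and 36. It was targeted in both genotypes and the values overlapped, so it does not check the genotype labels. Reads were aligned to the mouse genome, and whether reads of the human *RPL10* cDNA were counted in this gene was not tested. The 9 marker genes checked for T, erythroid, stromal and epithelial cells summed to 27.5 to 52.4 normalized mRNA counts in *R98S* and 13.3 to 22.3 in *WT* clones, with *Epcam* at 0 throughout; their part in the results was not tested.

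The mRNA library of *WT* clone 28, the one of lowest depth, stood apart. There, 32 of 33 small subunit genes were higher than the mean of the other 2 *WT* clones, by a median of 0.56 on the log2 scale (from -0.14 to 1.44). The 49 large subunit genes moved with them, with a median of 0.43, as did 476 other genes whose longest coding transcript is under 1000 bases (0.42), against -0.05 for 9839 genes with longer transcripts. The RPF library of the same clone did not stand apart for these genes, with a median of 0.05 and 18 of 33 above 0. Results on mRNA are therefore given with and without this clone. In bulk RNA, more RNA per cell and a larger share of each library cannot be told apart.

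**Figure D1:**
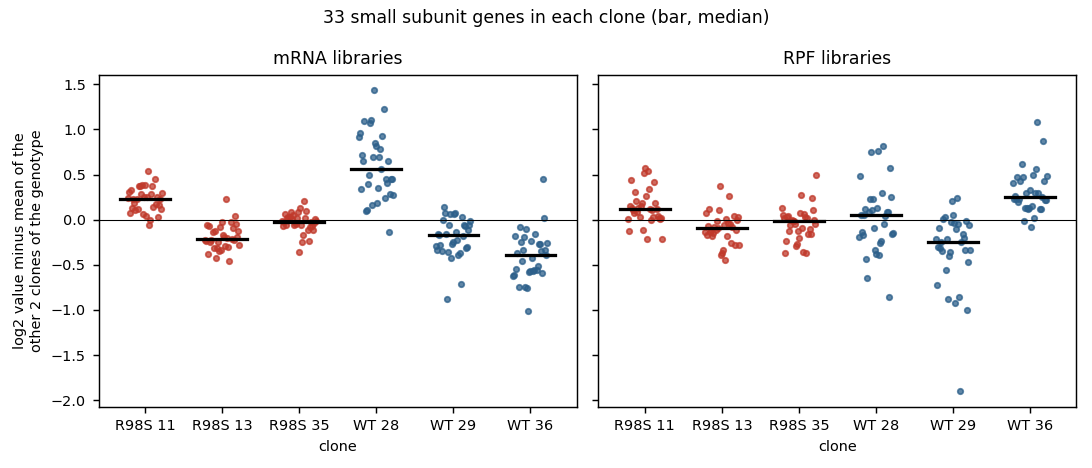
Each point is 1 of the 33 small subunit genes, plotted as its log2 normalized count (plus 1) in a clone minus the mean of the other 2 clones of the same genotype, for mRNA on the left and RPF on the right; bars are medians, red is *R98S* and blue is *WT*. The mRNA library of WT 28 sits highest, with a median of 0.56 and 32 of 33 genes above 0, and the RPF library of WT 36 is highest among RPF libraries, with a median of 0.25 and 31 of 33 genes above 0.

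Pyrimidine runs were looked for around the annotated transcript starts. Of the 33 genes, 25 had an entry in the RefSeq promoter table (GRCm38.p6), and *Rps14*, *Rps20*, *Rps27a* and *Rps29* were among those with none. The longest unbroken run of C or T on the transcribed strand was searched within 20 bases on either side of the annotated start, and only bases in this window were counted. A run here may begin before or after the annotated start and need not begin with C, so it is not the TOP feature itself. A run of at least 8 pyrimidines was present in 12 of 25 small subunit genes (48.0%) and 19 of 37 large subunit genes (51.4%), against 4965 of 27025 genes in the table (18.4%). Below are 30-base stretches for some of the genes named later, 5′ to 3′ on the transcribed strand with the run in capitals. Genes with long runs come first, then *Rps13* and *Rps3*, whose runs are short. The choice favours long runs and does not represent the 25 genes.
Fau (chr19:6057934-6057963, plus strand): cgcgcccccaCTTCTTCCTCTTTCTTgact
Rps18 (chr17:33955648-33955677, minus strand): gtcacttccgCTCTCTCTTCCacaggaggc
Rps15a (chr7:118116143-118116172, minus strand): gcccggcccaCTCTCTTTCTgccatcttcc
Rps6 (chr4:86857349-86857378, minus strand): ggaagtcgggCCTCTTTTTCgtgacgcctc
Rps26 (chr10:128626484-128626513, minus strand): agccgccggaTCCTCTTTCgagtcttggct
Rps27 (chr3:90213631-90213660, minus strand): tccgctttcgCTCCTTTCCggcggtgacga
Rps27l (chr9:66946064-66946093, plus strand): ctcctctccaCTCCTCCCCgccgcctctat
Rps13 (chr7:116334159-116334188, minus strand): agtggcgtcaCTTCCTgtgcggcttgattt
Rps3 (chr7:99483705-99483734, minus strand): cccatgaacaCTTgcaagggtcgccgcgct

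In this stretch *Fau* held the longest run of the 25 genes, 16 bases, and *Rps3* the shortest, 3 bases. A run is a match of letters near an annotated start and says nothing of where transcripts start in these cells.

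The small subunit genes took a mean of 3.68% ± 0.32 (SD, n = 3) of mRNA reads in *R98S* clones and 3.61% ± 0.85 (SD, n = 3) in *WT* clones. The single values were 4.05, 3.43 and 3.58% in *R98S* clones 11, 13 and 35, and 4.56, 3.35 and 2.93% in *WT* clones 28, 29 and 36, so the genotypes overlapped. Their share of RPF reads was smaller, 1.71, 1.63 and 1.61% in the *R98S* clones and 1.36, 1.33 and 1.68% in the *WT* clones. The RPF share of *WT* clone 36 lay within the *R98S* range, and the other 2 *WT* clones lay below it.

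Footprint levels differed widely among the small subunit genes. RPF were compared between genes as normalized counts per counted codon, because only reads within the coding sequence, without its first 15 and last 5 codons, had been counted. In *WT* clones the median over the 33 genes was 15.4 RPF per codon, against 0.53 over 9275 genes with at least 20 counted codons. The 4 highest were *Rps9* (50.5 ± 4.7, SD, n = 3) and *Rps3* (48.3 ± 6.2), both at the mRNA entry channel, *Rps21* (47.5 ± 2.4) and *Rps14* (40.7 ± 4.2), a platform protein whose loss of 1 copy marks the 5q- syndrome. The first 3 differed by less than the SD of *Rps9*, and *Rps14* lay lower by about 2 SD. The lowest was *Rps18*, a head protein, with 0.73 ± 0.075 RPF per codon, followed by *Rps23* of the decoding centre (4.98 ± 0.65) and *Rps6*, the substrate of the S6 kinases (5.32 ± 2.1). The order was nearly the same in both genotypes (Spearman rho 0.97 over 33 genes, as a description; the clones differ but the gene lengths are shared).

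**Figure D2:**
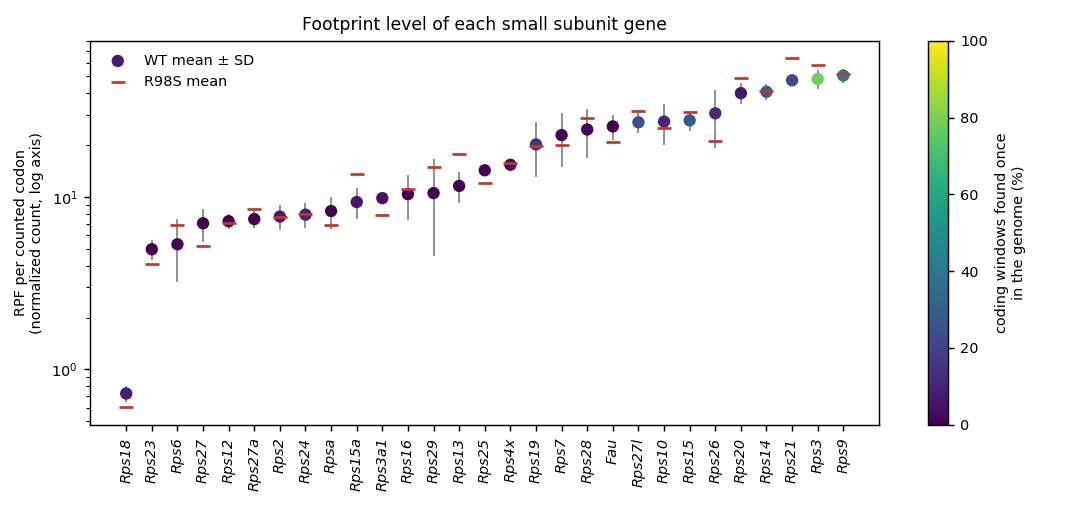
RPF per counted codon on a log axis for 29 of the 33 genes, ordered by the *WT* mean; circles are *WT* means with SD over 3 clones, red dashes are *R98S* means, and the colour of a circle is the share of 30-base windows of the coding sequence that occur once in the genome. *Rps18* is lowest with 0.73 and *Rps9* highest with 50.5; the dark circles, with few or no windows found once, fill most of the lower part of the order.

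Sequence shared with pseudogenes moved with these levels. Ribosomal protein genes have many processed pseudogenes, and the authors counted only alignments with a mapping quality of at least 10, which removes reads that fit several places equally well. A median of 5.12% of the 30-base windows of a coding sequence occurred once in the genome (GRCm38, with spliced transcripts added), and 14 of the 33 genes, *Rps13*, *Rps6*, *Fau* and *Rps29* among them, had no such window. Only 2 genes were above 50%, *Rps3* (78.1%) among them. The 6 genes with over 25% of windows found once had a median of 39.6 RPF per codon and the 14 genes with none had 10.5. Over the 33 genes, the share of windows found once and RPF per codon had a Spearman rho of 0.62, given as a description. How many reads of each gene were lost to this filter was not tested, so RPF levels of different members are not levels of synthesis. A comparison of genotypes within 1 gene meets the same filter in every clone. For the 14 genes with no window found once, *Rps13* among them, the counted reads may include reads of copies. Whether such reads differed between clones was not tested.

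Set beside other mRNAs, most small subunit mRNAs carried few counted footprints for their mRNA level. For each clone, RPF per codon was divided by mRNA per kilobase of the longest coding transcript, and the log2 ratio was taken relative to the median of 9204 genes. The median small subunit gene lay at -1.60, -1.29 and -0.81 in *WT* clones 28, 29 and 36 and at -1.39, -1.29 and -1.33 in *R98S* clones 11, 13 and 35. Between 23 and 30 of the 33 genes were below the median of all genes. The large subunit genes lay at a similar level, from -1.40 to -0.77 over the 6 clones. The depth of this depended on the mRNA length used. With the merged length of all annotated exons, 19 to 27 of the 33 small subunit genes were below the median of all genes. Their median in *WT* clone 36 was then -0.29. The mapping filter may weigh differently on RPF and mRNA. In the small subunit genes a median of 39.8% of 50-base transcript windows were found once, against 5.12% of 30-base coding windows. The part of the filter in this ratio, and in the smaller share of RPF reads, was not tested. *Rps12* was lowest in *WT* clones, at -4.27 ± 0.61 (SD, n = 3), followed by *Rps6* (-3.07 ± 0.48) and *Rpsa* (-2.68 ± 0.48), which encodes the laminin receptor precursor. None of these 3 genes had a coding window found once in the genome. The highest were *Rps27l* (1.16 ± 0.53) and *Rps20* (1.05 ± 0.56). For *Rps20* the annotated transcript used was 3706 bases long, with a coding sequence of 357 bases. A shorter transcript would give it a lower ratio, and which transcript these cells make was not tested. The 12 genes with a pyrimidine run of at least 8 had a median ratio of -0.90 and the 13 genes with a shorter run had -1.52; the ranges, -4.27 to 1.16 and -2.68 to 0.17, overlapped.

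In mRNA, no small subunit gene passed the threshold between *R98S* and *WT* (limma, adjusted p under 0.1), and 3 of 33 had an unadjusted p under 0.05. Over all 11344 genes tested, 3.03% were called higher and 3.91% lower (6.94% in all), and 17.9% had an unadjusted p under 0.05. The median log2 fold change of the 33 genes was -0.02, beside 0.01 over all genes, with 16 genes above 0 and 17 below. DESeq2 and edgeR on recovered reads also called none of the 33.

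*Rps6* and *Rps15a* were among the 3 genes with the largest positive mRNA differences. *Rps6* had 24609, 24788 and 23570 normalized mRNA counts in *R98S* clones 11, 13 and 35 and 16373, 15133 and 21457 in *WT* clones 28, 29 and 36. *Rps15a*, which binds the central domain of 18S rRNA, had 21890, 19602 and 21220 against 16647, 16884 and 14126. For both genes, as for *Rps3* (56066, 51828 and 49688 against 46927, 42442 and 37122), each *R98S* clone was above each *WT* clone. In all, 4 of 33 genes did not overlap between genotypes with *R98S* higher, and none did so with *R98S* lower, against 11.9% and 11.6% of all genes. The log2 fold changes were 0.48 (SE 0.19) for *Rps6* and 0.40 (SE 0.17) for *Rps15a*, with limma adjusted p of 0.21 and 0.24.

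The largest negative mRNA differences were those of *Rps18* (-0.31, SE 0.31), *Rps3a1* (-0.31, SE 0.21) and *Fau* (-0.29, SE 0.26), all on the log2 scale. *Fau* encodes ribosomal protein S30 fused to a ubiquitin-like protein. It had 14374, 11545 and 12753 normalized mRNA counts in *R98S* clones and 23943, 13703 and 11791 in *WT* clones 28, 29 and 36. *Rps18* had 695, 479 and 596 in *R98S* clones and 1190, 482 and 661 in *WT* clones. *Rps3a1* had 21422, 15805 and 15668 in *R98S* clones and 26591, 19802 and 19064 in *WT* clones. In all 3 genes the highest value was that of *WT* clone 28, and the other 2 *WT* clones lay within or near the *R98S* range.

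Without *WT* clone 28 the picture of the mRNA moved. The median log2 fold change of the 33 genes became 0.20 (all genes 0.01), 30 of 33 were above 0, and limma called 3 higher and none lower, where 4.28% of all genes were called higher. *Rps13* was among the 3 (log2 fold change 0.60, limma adjusted p 0.053). The differences of *Fau* and *Rps18* turned to 0.01 and 0.05. With the remaining 2 *WT* clones these calls rest on a smaller control group, and no other single clone left out gave an mRNA call among the 33 genes. Without *WT* clone 36 the median log2 fold change moved the other way, to -0.17. In RPF no gene of the 33 was called without *WT* clone 28 (1.53% of all genes called higher), and none in TE (0.0111% called higher).

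In RPF, 1 of 33 small subunit genes rose in *R98S* clones and none fell, beside 3.13% called higher and 4.62% called lower (7.76% in all) of 9580 genes tested. An unadjusted p under 0.05 was found for 3 of 33, *Rps13*, *Rps15a* and *Rps21*, and for 20.3% of all genes. The gene was *Rps13*, which binds the central domain of 18S rRNA and contributes to a bridge to the large subunit. Its gene lies at chr7:116331505-116334195 (GRCm38, minus strand) and has 6 exons. *Rps13* had 2456, 2444 and 2079 normalized RPF counts in *R98S* clones 11, 13 and 35 and 1388, 1299 and 1869 in *WT* clones 28, 29 and 36. All 3 *R98S* values were above all 3 *WT* values, with *WT* clone 36 closest. The log2 fold change was 0.63 (SE 0.19, limma adjusted p 0.095). The call was close to the threshold. DESeq2 (adjusted p 0.049) and edgeR (adjusted p 0.097) also made it. It was lost when *R98S* clone 11 (limma adjusted p 0.27), *R98S* clone 13 (0.29), *WT* clone 28 (0.20) or *WT* clone 29 (0.18) was left out, with log2 fold changes from 0.53 to 0.79 over all 6 such fits. In mRNA, *Rps13* had 10917, 9949 and 9989 normalized counts in *R98S* and 10685, 6919 and 6651 in *WT* clones.

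**Figure D3:**
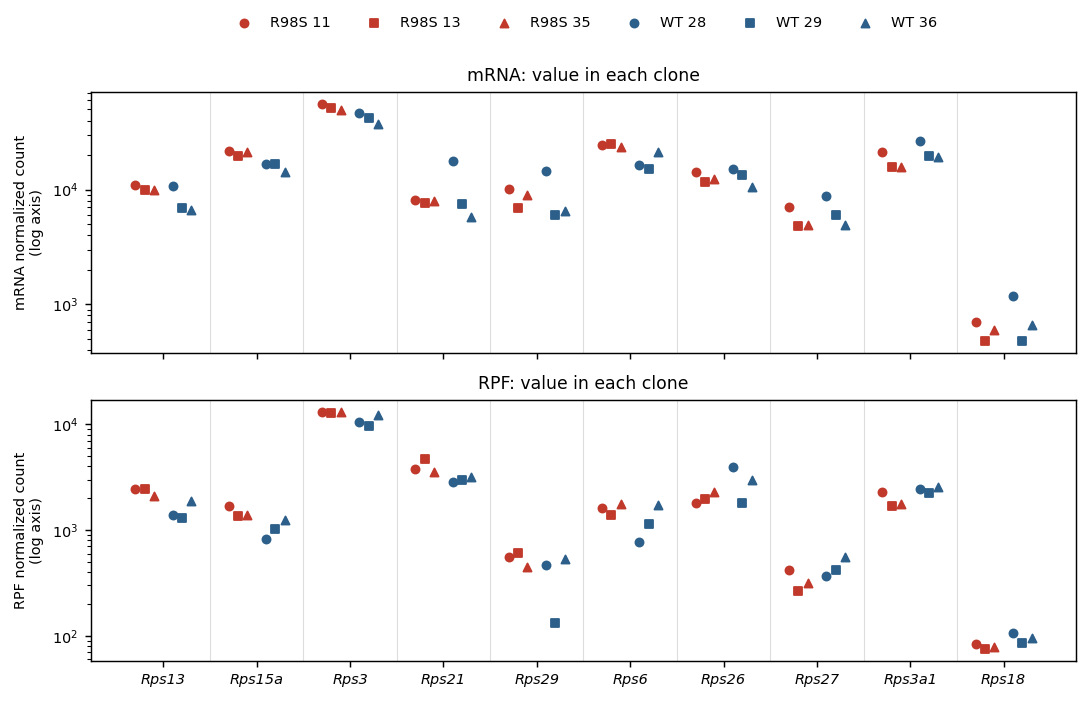
Normalized counts on log axes for 10 small subunit genes in each clone, mRNA above and RPF below; red symbols are *R98S* clones 11, 13 and 35 and blue symbols *WT* clones 28, 29 and 36, each clone with its own marker shape within a genotype. For *Rps13* the 3 red RPF points (2079 to 2456) are above the 3 blue ones (1299 to 1869), and for *Rps29* the RPF of WT 29 (133) is far below the other 5 clones (450 to 603).

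*Rps29*, *Rps13* and *Rps15a* had the largest positive RPF differences. *Rps29*, a zinc-binding head protein, had 562, 603 and 450 normalized RPF counts in *R98S* clones. The *WT* clones 28, 29 and 36 had 471, 133 and 534. The log2 fold change of 0.73 (SE 0.43, limma adjusted p 0.37) rested on *WT* clone 29, without which it was 0.09. *Rps15a* had 1707, 1357 and 1395 against 828, 1020 and 1236, with no overlap and a log2 fold change of 0.54 (SE 0.20, adjusted p 0.15). *Rps21* had 3786, 4740 and 3520 against 2863, 2948 and 3157, also without overlap (0.41, SE 0.18, adjusted p 0.22). In *Rps3* the *R98S* clones had 13136, 12679 and 13039 normalized RPF counts and the *WT* clones 10459, 9557 and 12274. These 2 genes, *Rps13* and *Rps15a* were the 4 whose RPF did not overlap with *R98S* higher (12.5% of all genes).

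The largest negative RPF differences belonged to *Rps26*, *Rps27* and *Rps3a1*. *Rps26* lies at the mRNA exit channel and is a gene of Diamond-Blackfan anaemia. It had 1816, 1947 and 2277 normalized RPF counts in *R98S* clones and 3933, 1806 and 2966 in *WT* clones 28, 29 and 36. The log2 fold change was -0.46 (SE 0.26, limma adjusted p 0.35); without *WT* clone 29, whose value lay below all 3 *R98S* clones, it was -0.77 with an adjusted p of 0.071. *Rps27* had 421, 267 and 314 against 370, 423 and 559 (-0.44, SE 0.23, adjusted p 0.32), and *Rps3a1* had 2288, 1680 and 1758 against 2444, 2229 and 2534 (-0.34, SE 0.18, adjusted p 0.32). Both overlapped between genotypes. *Fau*, *Rps18* and *Rps25* were the 3 genes whose RPF did not overlap with *R98S* lower (12.8% of all genes). *Fau* had 2348, 2196 and 2489 normalized RPF counts in *R98S* and 2631, 2597 and 3470 in *WT* clones, and *Rps25* had 1418, 1072 and 1300 against 1589, 1470 and 1439. For *Rps18* this rested on low values, 85, 75 and 79 normalized RPF counts in *R98S* and 106, 86 and 95 in *WT* clones. The median RPF log2 fold change of the 33 genes was 0.03, beside 0.01 over all genes.

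Translation efficiency (TE), the log2 ratio of RPF to mRNA within a clone, gave no call among the 33 genes and almost none among all genes. No member was called by limma, DESeq2 or edgeR, and none had an unadjusted p under 0.05, while over 9043 genes tested 0 were called higher, 0.0221% were called lower and 7.85% had an unadjusted p under 0.05. The differences ran from -0.43 for *Rps26* to 0.68 for *Rps29*, with a median of 0.05, beside 0.00 over all genes. Without *WT* clone 28 the median of the 33 genes was -0.14, beside 0.01 over all genes, and 25 of 33 were below 0. No other single clone left out turned the sign of the median. Without *WT* clone 36 it moved the other way, to 0.27. *Rps21* had TE values of -1.11, -0.68 and -1.18 in *R98S* clones 11, 13 and 35 and -2.65, -1.36 and -0.87 in *WT* clones 28, 29 and 36. Its difference of 0.63 (SE 0.39, limma adjusted p 0.69) was 0.12 without *WT* clone 28. *Rps25*, which is needed for initiation at some internal ribosome entry sites, was the only member whose TE did not overlap between genotypes. It had -3.64, -3.91 and -3.82 in *R98S* and -3.50, -3.53 and -3.37 in *WT* clones, a difference of -0.33 (SE 0.22, limma adjusted p 0.70). Of all genes, 7.36% did not overlap with *R98S* lower and 7.45% with *R98S* higher. *Rps29* had -4.17, -3.52 and -4.31 against -4.95, -5.47 and -3.61, and *Rps26* had -2.96, -2.57 and -2.43 against -1.94, -2.88 and -1.84. Both overlapped, with *WT* clone 29 lowest of the *WT* clones in each. *Rps14* differed by 0.31 (SE 0.30), with TE values of -1.99, -1.83 and -1.89 against -2.90, -2.15 and -1.58. In 32 of the 33 genes, all but *Rps25*, the SD of TE over the *WT* clones was larger than over the *R98S* clones. The share over all genes was not counted, so this is not a trait of these genes. They also share the same libraries, among them the mRNA library of *WT* clone 28 that stood apart.

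**Figure D4:**
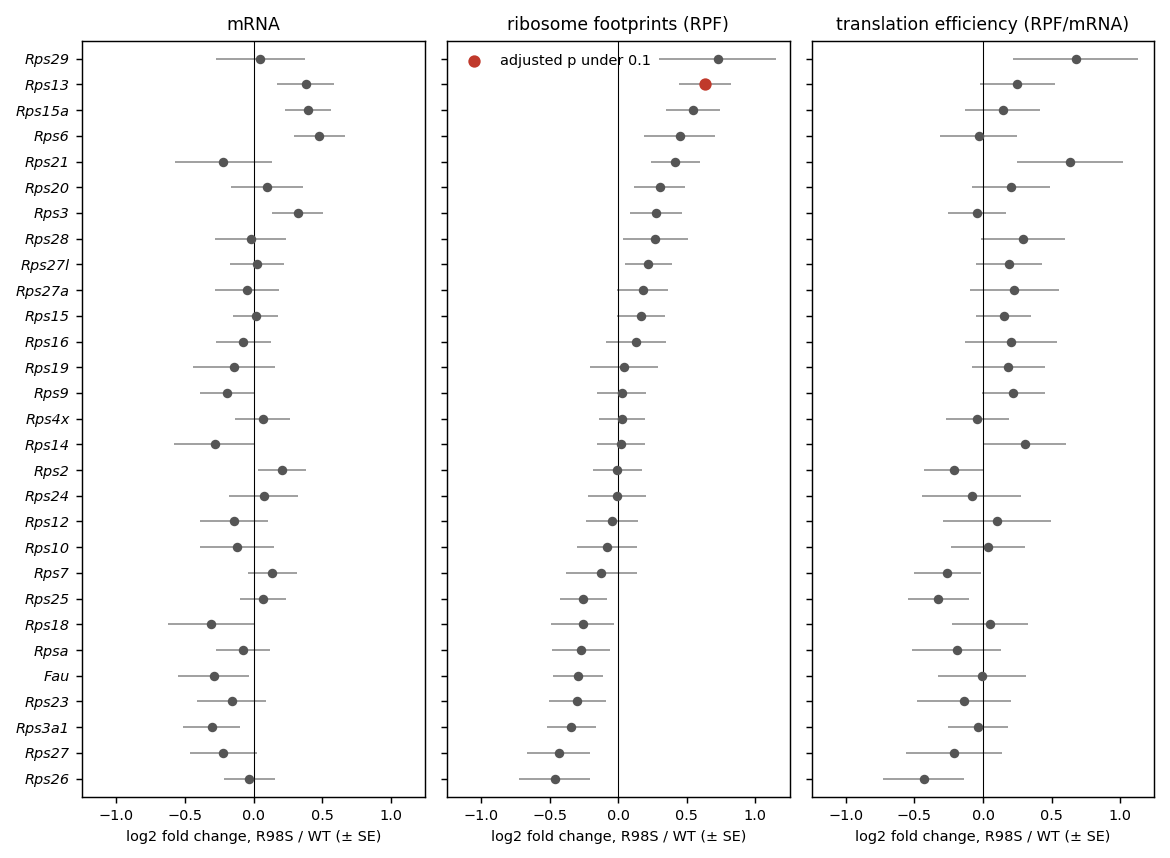
Log2 fold change of *R98S* against *WT* with its standard error (limma, n = 3 clones per genotype) for 29 of the 33 small subunit genes in mRNA, RPF and TE, ordered by the RPF change. *Rps13* in RPF (0.63, red) is the only point past an adjusted p of 0.1, and the TE values lie between -0.43 and 0.68.

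The genes that carry alternative or fused forms of a protein were compared between genotypes 1 gene at a time. Exchange between copies was not tested. *Rps27* and *Rps27l* encode near-identical zinc finger proteins, and *Rps27l* is a target of p53. *Rps27l* had 3298, 3011 and 3630 normalized mRNA counts in *R98S* and 4195, 2699 and 3005 in *WT* clones, and 2116, 1848 and 2060 normalized RPF counts in *R98S* and 1542, 1682 and 1974 in *WT* clones. *Rps27* had 7014, 4783 and 4874 normalized mRNA counts in *R98S* and 8808, 5991 and 4909 in *WT* clones. In RPF, *Rps27* had 421, 267 and 314 normalized counts in *R98S* and 370, 423 and 559 in *WT* clones. Genotypes overlapped for both paralogs in both assays. Their RPF log2 fold changes had opposite signs, 0.22 (SE 0.17) for *Rps27l* and -0.44 (SE 0.23) for *Rps27*. The ratio of the 2 paralogs within a clone was not tested. *Rps27a*, which encodes ubiquitin fused to S27a, had 14825, 17011 and 14113 normalized mRNA counts in *R98S* and 22622, 14253 and 12207 in *WT* clones, and 1337, 1147 and 967 normalized RPF counts in *R98S* and 894, 1126 and 1016 in *WT* clones, again with overlap. *Rps4x* had 4130, 3662 and 3609 normalized RPF counts against 3880, 3395 and 3931, and 47762, 42148 and 42276 normalized mRNA counts against 50759, 40845 and 35804. Its copy *Rps4l* had at most 1 mRNA read in any library. None of these paralogs was called in mRNA, RPF or TE.

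*Rps19*, *Rps14*, *Rpsa* and *Rps6*, taken as members with a well known role, were also read in every clone. *Rps19*, the most frequently mutated gene of Diamond-Blackfan anaemia, had 2515, 2467 and 2457 normalized RPF counts in *R98S* and 3400, 1605 and 2552 in *WT* clones, so the *WT* values enclosed the *R98S* values. *Rps14* had 5658, 5048 and 5474 against 5437, 4732 and 5826. *Rpsa* had 1685, 1639 and 2338 against 2098, 1921 and 2817, and *Rps6* had 1606, 1384 and 1760 against 777, 1149 and 1728. In mRNA, *Rps19* had 11080, 8095 and 9076 normalized counts in *R98S* and 17186, 8706 and 7303 in *WT* clones. *Rps14* had 22483, 17970 and 20329 against 40702, 20944 and 17420, and *Rpsa* had 51518, 39438 and 44553 against 53917, 47009 and 42127. *WT* clone 28 was the highest of the 6 clones in these 3 mRNAs. Of the 4 genes, none was called in any of the 3 comparisons, and *WT* clones spread more widely than *R98S* clones in RPF of all 4.

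Several members with large positive differences shared a feature that the choice of genes did not use, their chromosomal position. The 33 genes lie on 14 chromosomes, and 9 of them on chromosome 7. In its distal part, *Rps3*, *Rps13* and *Rps15a* (chr7:99477896-118116188, GRCm38), had mRNA log2 fold changes from 0.32 to 0.40 and RPF log2 fold changes from 0.27 to 0.63. In its proximal part, *Rps9*, *Rps19* and *Rps16* (chr7:3703993-28353155) had -0.20 to -0.08 in mRNA and 0.03 to 0.13 in RPF. This split was drawn after the values were seen and is a description.

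Other genes at the same places moved alike. Within 5 Mb of the 3 distal genes, the median mRNA log2 fold change of tested genes that encode no ribosomal protein was 0.30 to 0.35, and the median RPF log2 fold change was 0.22 to 0.27. Around *Rps13*, 23 of 28 such genes were above 0 in RPF, with 4 called higher and none lower. On chromosome 3, where the median of all tested genes without ribosomal protein genes was -0.29 in mRNA and -0.30 in RPF, the neighbours of *Rps27* and *Rps3a1* had RPF medians of -0.23 and -0.21. Over the 33 genes, a member's mRNA log2 fold change and that of its neighbours had a Spearman rho of 0.60, and the RPF values 0.40, as descriptions over genes that share the same 6 clones and, in part, the same neighbours.

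When the median of the neighbours was removed from each gene in each library, *Rps13* RPF had a log2 fold change of 0.31 (limma adjusted p 0.42), and no small subunit gene was called in either assay. The mRNA differences of *Rps13*, *Rps15a* and *Rps3* became 0.07, 0.05 and 0.03. That of *Rps6* stayed at 0.45 in mRNA (adjusted p 0.30) and was 0.63 in RPF (adjusted p 0.14). Copy number was not measured in these data.

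**Figure D5:**
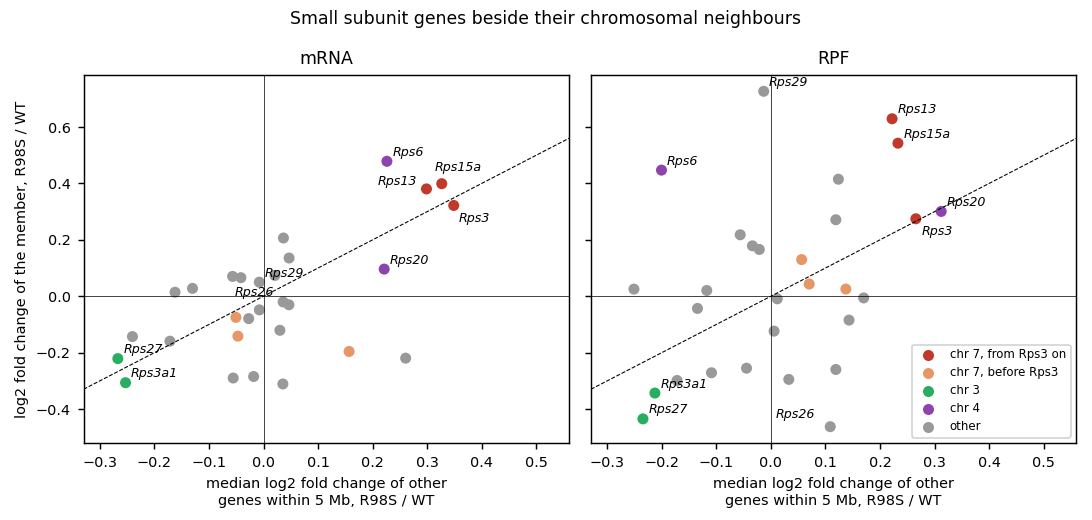
Log2 fold change (*R98S* against *WT*) of 29 of the 33 small subunit genes against the median log2 fold change of other tested genes within 5 Mb, for mRNA on the left and RPF on the right; the dashed line marks equal values and colours mark chromosomes 3, 4 and 7. In mRNA, *Rps13*, *Rps15a* and *Rps3* (red) lie close to the line at 0.32 to 0.40, while *Rps6* in RPF lies at 0.45 above neighbours with a median of -0.20.

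Genes that work on the small subunit or its mRNAs were counted in the same way. Of 41 tested factors of 40S assembly, limma called 1 higher in mRNA and of 42 tested in RPF 1 higher, and none lower, shares near the 3.03% and 3.13% of all genes called higher. The first was *Utp14a*, a helicase cofactor of early 18S rRNA processing, with 1875, 1919 and 1686 normalized mRNA counts in *R98S* and 1174, 983 and 1236 in *WT* clones (log2 fold change 0.70, adjusted p 0.054). The second was *Fcf1*, a subunit of the small subunit processome, with 652, 551 and 616 normalized RPF counts in *R98S* and 398, 315 and 434 in *WT* clones (0.67, adjusted p 0.075). Both calls were lost when 1 clone was left out, with adjusted p of up to 0.22 and 0.24. None of the 23 tested mRNAs of regulators of TOP mRNAs and S6, and none of the 19 tested mRNAs of 40S quality control and 40S-binding factors, was called, nor any of the 22 and 18 tested in RPF or in TE.

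The large subunit genes, which share the TOP feature, were counted likewise. Of 49 tested, none was called in mRNA, 2 were called higher in RPF (3.13% of all genes) and none of 48 was called in TE. The 2 were *Rpl27a* (log2 fold change 0.83, adjusted p 0.024) and *Rplp2* (0.60, adjusted p 0.096). Both calls were lost when 1 clone was left out, with limma adjusted p of up to 0.112 and 0.311. The median RPF log2 fold change was 0.10 for the large and 0.03 for the small subunit genes; this difference was not tested.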

How the data were processed

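For each assay the authors deposited 1 table of signal values per gene, which are read counts divided by the DESeq2 size factor of each library. According to the study's methods, adapters were trimmed, ribosomal and transfer RNA reads were removed from the footprints with Bowtie2, the rest was aligned to mm10 with TopHat2 2.0.11 (versions and build also in the submitters' processing notes), and alignments with a mapping quality of at least 10 were kept. Per the series' design text, 3 technical replicates of each footprint library were merged. The gene annotation used for counting is not given in the sources used here. In every library 100% of values above 0 were whole multiples of 1 read (tolerance 0.001), so whole reads were recovered.

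Values were taken as log2(value + 1). In R 4.3.3, limma 3.58.1 with a mean-variance trend compared the genotypes over all genes with a mean of at least 10 (for TE, at least 10 in all 12 libraries), with Benjamini-Hochberg adjustment over all of them (threshold 0.1, that of the study). Fold changes are on that scale. TE was paired by clone, since both libraries of a clone carry its number; their deviations from the genotype means had correlations of 0.22 to 0.68 (mean 0.52), all above 0. *R98S* and *WT* clones share no numbers and were not paired. DESeq2 1.42.0 called 1283 genes in mRNA and 1095 in RPF and edgeR 4.0.16 called 805 and 808 on recovered reads, beside 787 and 743 with limma. With 3 against 3 clones, an exact permutation test of 1 value cannot go below a two-sided p of 0.1, so none was used.

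Coding sequences, positions and windows came from the GENCODE annotation and genome sequence of GRCm38, the build of mm10; a principal coding transcript was chosen per gene. Start sequences came from RefSeq (GRCm38.p6). The members and gene lists were chosen with earlier results of these data known. Values in all clones were given for genes past the threshold, the 3 largest rises and falls in each measure, fused or paralogous genes, *Rps6*, *Rps14*, *Rps19* and *Rpsa*, plus *Rps3* and the RPF of *Rps18*, *Rps21* and *Rps25*, added after their values were seen; genes of other lists were named only past the threshold. Values of some members and of a marker gene are not reported here; these members stay in every count and median.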

Additional observations from a re-analysis of the deposited data

How the results depend on the processing

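Calls among the 33 genes held under another pseudocount, no filter on low values, TMM scaling, size factors without ribosomal protein genes, DESeq2 and edgeR, while leaving out a clone changed them. In mRNA, 0 to 3 genes were called higher when 1 clone was left out, the 3 without *WT* clone 28. In RPF, the number called higher was 0 to 1 and the number called lower 0 to 1 (*Rps26* without *WT* clone 29). With the median of neighbours within 5 Mb removed, an alternative chosen after seeing the data, the RPF calls fell to 0. TE calls stayed at 0 with and without the block for clone, that is with paired and unpaired libraries. Over all genes, limma called 787 in mRNA (DESeq2 1283; 316 to 1109 when 1 clone was left out), 743 in RPF (226 to 1156) and 2 in TE (DESeq2 6, unpaired 3, 0 to 3 when 1 clone was left out). Over 24 differences of named genes and 331 alternatives, 4 changed sign. These were, on the log2 scale, when clones were left out, *Rps18* mRNA (-0.60 to 0.047), *Fau* mRNA (-0.50 to 0.014) and *Rps14* TE (-0.042 to 0.62), and, with neighbours removed, *Rps3* RPF (-0.020). The SD of log2 RPF per codon over genes was 1.27, and 1.41 per window found once, which could be had for 19 of 33 genes only. The median ratio of RPF to mRNA was -1.23 relative to all genes as a mean of *WT* clones and -0.74 with merged exon lengths; the cause was not tested. With 3 clones per genotype, SEs of single genes were 0.17 to 0.46, which limits the differences that could be called. Reads of genes with identical copies cannot be told apart.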

Other observations

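The mRNA table lists copies of small subunit genes that the RPF table does not. *Rps3a3* had 11376, 7348 and 8300 normalized mRNA counts in *R98S* clones 11, 13 and 35 and 21185, 9340 and 9095 in *WT* clones 28, 29 and 36, and *Rps3a2* had 573 to 762 in *R98S* and 661 to 1120 in *WT* clones. Reads of *Rps3a1* and these copies cannot be told apart where their sequences agree. *Rps12l1* was at 0 in all libraries, and *Rps12l2* and *Rps4l* reached at most 6.35 and 0.82 normalized counts.

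Of 100 genes named as pseudogenes of the small subunit in the mRNA table, 35 were at 0 in every library and 13 had a mean of at least 10. The highest were *Rps15a-ps8*, with 3121, 2767 and 2931 in *R98S* and 3021, 2237 and 1867 in *WT* clones, and *Rps26-ps1*, with 2885, 2525 and 2255 against 1754, 2746 and 2212. Only *Rps10-ps1* was in the RPF table, with 1.04 to 8.60 normalized counts.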
